A study of Mus musculus with 36 samples.

Results

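Crypt stem cell genes are transcripts known from the cells at the base of the small-intestinal crypt. The 8 genes described here are Lgr5, Ascl2, Olfm4, Slc12a2, Axin2, Gkn3, Smoc2 and Rgmb. They were chosen by name, and are 8 of the 27998 genes listed in both single-cell matrices of the study. All 8 had molecules counted in both libraries, and all 8 passed the filter on low counts that left 11610 genes for the comparison between cell types. The series profiled mouse small intestine, mostly as small RNA libraries of sorted cells. This report uses its 2 single-cell RNA libraries, made with 10X Genomics Chromium from separated intestinal cells of wild-type mice aged 12 months, strain C57BL6/2J, with no treatment named. They are called library 1 and library 2 here. The labels speak of mice in the plural and do not say whether the 2 libraries came from different animals, so the spread between them may be technical.

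The crypt base holds stem cells that divide and feed a zone of fast-cycling progenitors, from which absorptive enterocytes and the secretory goblet, Paneth, enteroendocrine and tuft cells arise. Stem cells depend on Wnt signals, much of them supplied by Paneth cells that sit between them. Lgr5 is a receptor for R-spondins, secreted proteins that strengthen the Wnt response. Ascl2 is a transcription factor of the stem cell programme. Axin2 is a Wnt target whose protein feeds back on the pathway by promoting the breakdown of beta-catenin. Olfm4 and Gkn3 encode secreted proteins, and Smoc2 encodes a secreted matrix protein that binds calcium. Rgmb is a co-receptor of BMP signalling, the pathway that opposes the stem cell state. Slc12a2 is a sodium, potassium and chloride cotransporter of the basolateral membrane, used in fluid secretion.

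Windows from the RefSeq promoter table, on build GRCm38.p6, were used for 5 of the 8 genes: Ascl2, Olfm4, Axin2, Gkn3 and Rgmb. A filter by chromosome was applied to the windows of the 8 genes and not to those of all genes. A gene without a window here may therefore still have an entry in that table. A window is taken here as the 250 bases before an annotated start, and the 5 genes gave 7 windows. The following 3 are shown because their genes set the main contrasts below: Axin2 for the Wnt pathway, Ascl2 for its level in tuft cells, and Olfm4 for its difference between libraries. They lie at chr11:108920099-108920348 on the plus strand for Axin2, chr7:142969265-142969514 on the minus strand for Ascl2 and chr14:80000052-80000301 on the plus strand for Olfm4. Each is written 5′ to 3′ along its gene, and capitals mark a match to the RBPJ motif.
Axin2: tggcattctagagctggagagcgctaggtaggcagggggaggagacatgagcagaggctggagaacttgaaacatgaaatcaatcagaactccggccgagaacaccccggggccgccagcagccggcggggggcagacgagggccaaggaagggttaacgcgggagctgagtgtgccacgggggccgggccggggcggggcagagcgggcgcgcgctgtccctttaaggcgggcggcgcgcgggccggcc
Ascl2: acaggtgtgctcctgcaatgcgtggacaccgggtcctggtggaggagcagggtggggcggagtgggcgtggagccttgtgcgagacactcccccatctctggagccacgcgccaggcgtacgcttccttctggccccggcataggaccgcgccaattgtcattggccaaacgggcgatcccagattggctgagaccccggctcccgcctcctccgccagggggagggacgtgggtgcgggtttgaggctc
Olfm4: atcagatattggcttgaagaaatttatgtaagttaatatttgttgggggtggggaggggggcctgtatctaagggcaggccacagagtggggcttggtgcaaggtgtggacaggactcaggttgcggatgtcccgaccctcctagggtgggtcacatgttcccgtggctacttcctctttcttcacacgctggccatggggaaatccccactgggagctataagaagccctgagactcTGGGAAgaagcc

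The windows were searched on both strands for 3 motifs. The TCF/LEF letters CTTTGAA or CTTTGAT, bound by the nuclear effectors of Wnt, stood in 0 of the 7 windows and in 7.48% of 32851 windows of all genes. The E-box CAGCTG, a motif of ASCL2 and related factors, stood in 0 of the 7 and in 13% of all. The RBPJ letters TGGGAA, bound by the nuclear effector of Notch, stood in the Olfm4 window alone, 12 bases before the start, and in 21.6% of all. No match overlapped another. These counts describe the letters in short windows only.

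The authors had named the type of 1144 of 1209 barcodes in library 1 and of 1470 of 7711 barcodes in library 2, in 8 types, and 0 barcodes were shared between the libraries. The type labelled ISC, read here as intestinal stem cell, held 78 and 80 cells (library 1 first, here and below), the progenitor type 330 and 364, the secretory progenitor type 82 and 146, goblet 105 and 250, Paneth 84 and 74, EEC 35 and 45, tuft 24 and 23, and enterocyte 406 and 488. Each molecule is counted by its unique molecular identifier (UMI), and a level is given in CPM, the UMIs of a gene per 1000000 UMIs of all genes, summed over the cells of a type in a library. ISC cells had a median of 15150 and 16514 UMIs, and Paneth cells 73555 and 67245. The shallowest annotated cell had 8339 UMIs in library 1 and 1116 in library 2. The marker lists of goblet, Paneth, enteroendocrine, tuft, enterocyte and progenitor cells each had their highest sum in the type of that name, or EEC for the enteroendocrine list, in both libraries. ISC cells held 0 UMIs of Dclk1, which defines tuft cells, in either library, and 0 and 2 UMIs of the leukocyte gene Ptprc. The 9 measured leukocyte markers summed to 1814 and 1700 CPM in ISC cells, of which the antigen-presentation gene Cd74 alone was 1779 and 1685, and 8 stromal markers summed to 0.829 and 0. The authors named the types on these same cells, and whether the 8 genes entered the clustering or naming is not stated, so differences between types are a description and no independent test of the genes.

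The ISC type carried the highest level of 7 of the 8 genes in both libraries, and Ascl2 was the exception. UMI counts are not scaled by transcript length, so genes are compared between types and not with each other. ISC cells ranked first among the 8 types in 14 of 16 gene and library pairs by CPM. The enterocyte type, the mature absorptive end of the lineage, ranked last in most of them, and served as the background for a cell that should lack these genes.

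**Figure D1:**
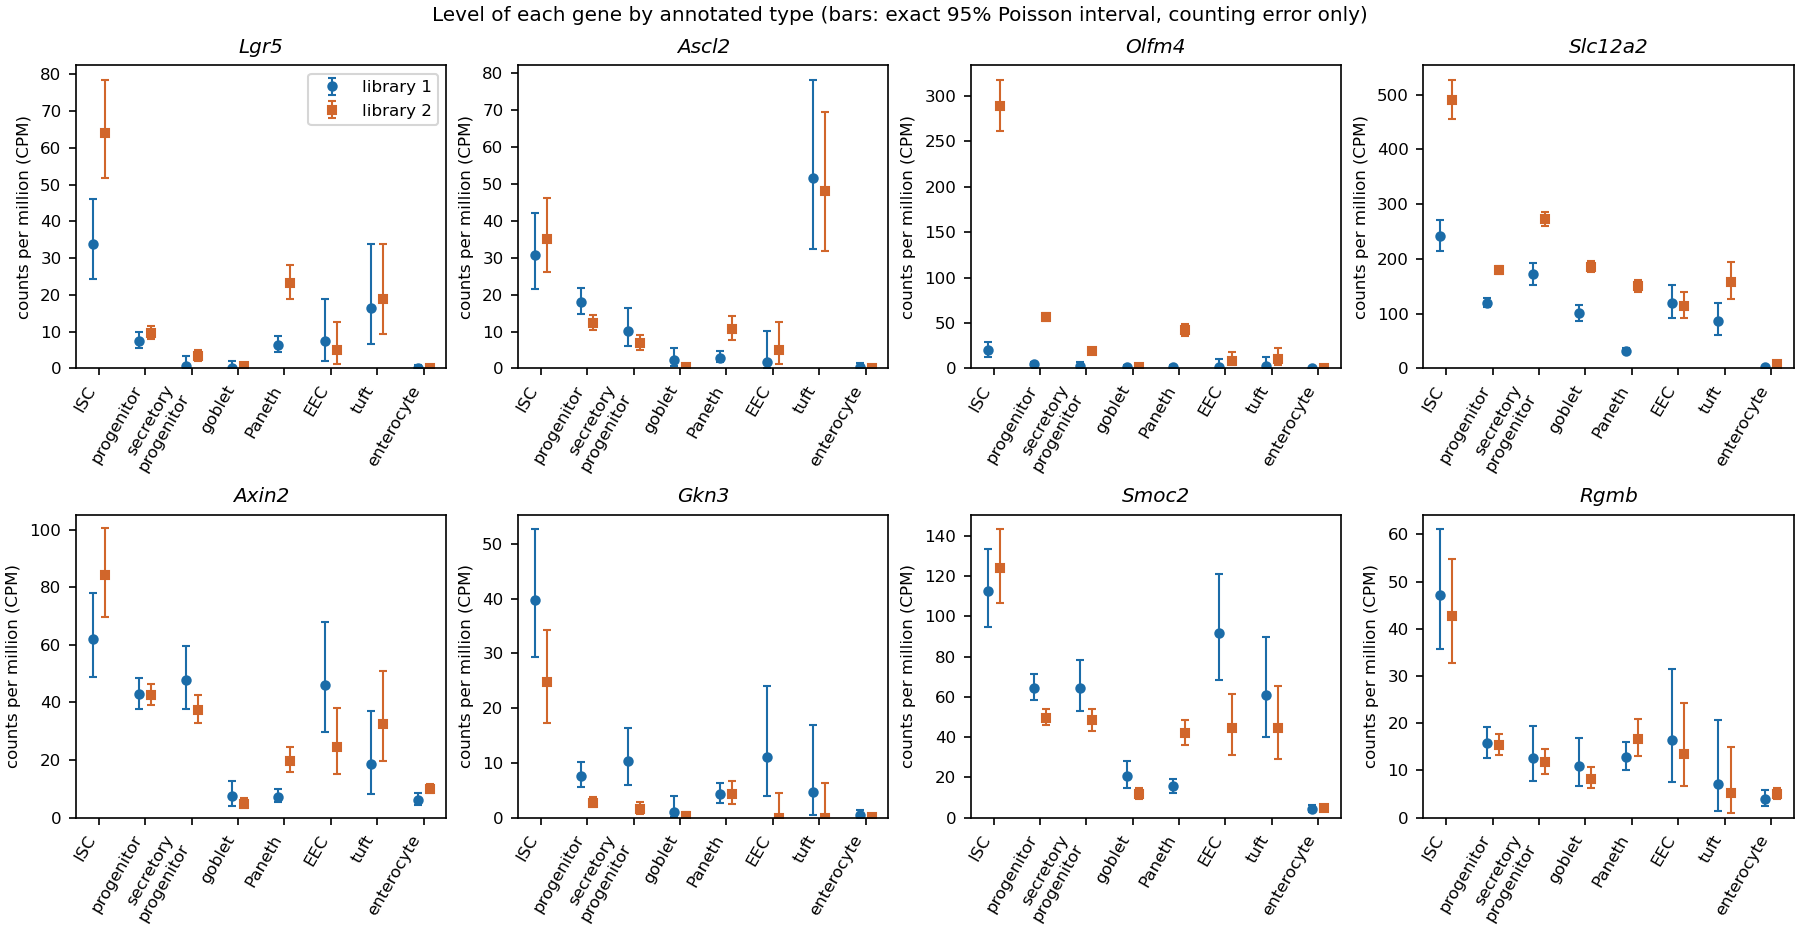
Level of each of the 8 genes (y axis, CPM from 0) in the 8 annotated types (x axis); circles are library 1, squares library 2, and bars are exact 95% Poisson intervals that cover counting error only. ISC is highest in both libraries for every gene except Ascl2, whose highest type is tuft, and Olfm4 in ISC cells is 19.9 CPM in library 1 and 289 CPM in library 2.

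Lgr5, the receptor, stood at 34.0 CPM in ISC cells of library 1 (95% Poisson interval 24.4 to 46.1, from 41 UMIs) and at 64.1 CPM in library 2 (51.7 to 78.5, from 93 UMIs). The next types were tuft at 16.5 CPM in library 1 and Paneth at 23.2 CPM in library 2. Progenitors were at 7.46 and 9.64 CPM, so the step from ISC to progenitor was 4.55-fold and 6.65-fold. Goblet cells of library 1 had 0 Lgr5 UMIs, and ISC cells were at least 20.8-fold higher than the level that 3 UMIs would give there. Enterocytes were at 0.157 and 0.196 CPM, from 1 and 3 UMIs. The ISC intervals did not overlap those of progenitors in either library, while in library 1 the ISC and tuft intervals did.

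Ascl2, the transcription factor, was higher in tuft than in ISC cells in both libraries. Tuft cells were at 51.7 and 48.2 CPM, and ISC cells at 30.7 and 35.2 CPM. Progenitors followed at 18.1 and 12.4 CPM, and enterocytes were at 0.470 and 0.0652 CPM. An Ascl2 UMI was seen in 12 of 24 and 17 of 23 tuft cells, against 25 of 78 and 28 of 80 ISC cells. The tuft sums rest on 22 and 28 UMIs, and the Poisson intervals of tuft and ISC overlapped in each library. In the fit across all types, the log2 difference of ISC minus tuft was -0.33 (SE 0.36, adjusted p = 0.608 by edgeR). The order tuft above ISC was the same in both libraries, and the level difference was within the error of the fit. The shares of cells with a UMI had 95% binomial intervals that cover counting error only. In library 1 they were 29.1% to 70.9% in tuft and 21.9% to 43.6% in ISC cells, which overlapped. In library 2 they were 51.6% to 89.8% and 24.7% to 46.5%, which did not. Median depths in library 2 were 16640 and 16514 UMIs, while the deepest cells held 98877 UMIs in tuft and 66707 in ISC. These shares are unthinned, so they were not matched for depth. Markers of tuft cells summed to 5385 and 3657 CPM in the tuft type and to 3.31 and 4.14 CPM in ISC cells. The leukocyte gene Ptprc was at 32.9 and 8.60 CPM in tuft cells, from 14 and 5 UMIs, against 0 and 2 UMIs in ISC cells. The 9 measured leukocyte markers together went the other way, at 804 and 738 CPM in tuft and 1814 and 1700 CPM in ISC cells. Cd74 made up most of these sums, at 641.9 and 622.5 CPM in tuft and 1779 and 1685 CPM in ISC cells. The part of leukocyte RNA in the Ascl2 level of tuft cells was not tested.

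Olfm4, the secreted glycoprotein, showed the widest gap between libraries. In ISC cells it stood at 19.9 CPM (24 UMIs) in library 1 and 289 CPM (419 UMIs) in library 2. Progenitors showed the same direction at 5.14 and 56.5 CPM, as did secretory progenitors at 3.02 and 19.1 CPM and Paneth cells at 1.88 and 41.9 CPM. Enterocytes were near 0 in both, at 0.783 and 0.130 CPM. The order ISC, then progenitor, held within each library, with ISC 3.87-fold and 5.12-fold above progenitors.

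Gkn3, a secreted protein first known from stomach, ran the other way between libraries. It stood at 39.8 and 24.8 CPM in ISC cells and at 7.63 and 2.72 CPM in progenitors. Its UMIs numbered 48 and 36 in ISC cells. Tuft and EEC cells of library 2 held 0 Gkn3 UMIs, whereas in library 1 they held 2 and 6. Smoc2, the matrix protein, was nearly level between libraries in ISC cells, at 113 and 124 CPM, and lower in progenitors at 64.7 and 49.8 CPM. In library 1 its second type was EEC at 91.9 CPM, whose Poisson interval overlapped that of ISC. In library 2 EEC stood at 44.3 CPM and no other type's interval reached that of ISC.

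Axin2, the Wnt feedback gene, had the smallest fitted step of the 8 from ISC to progenitor. It stood at 62.1 and 84.1 CPM in ISC cells, 43.0 and 42.6 CPM in progenitors and 47.8 and 37.5 CPM in secretory progenitors. The intervals of ISC and secretory progenitors overlapped in library 1 and were apart in library 2. Enterocytes kept 6.26 and 10.0 CPM.

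Slc12a2, the cotransporter, was at 241 and 490 CPM in ISC cells. Secretory progenitors came second at 172 and 273 CPM, and goblet cells were at 101 and 186 CPM, so the secretory branch kept more of it than enterocytes did, at 3.44 and 7.50 CPM. Rgmb, the BMP co-receptor, was at 47.2 and 42.7 CPM in ISC cells and at 15.8 and 15.4 CPM in progenitors. Its second type was EEC at 16.5 CPM in library 1 and Paneth at 16.7 CPM in library 2. Both genes fell from ISC to enterocyte, by 70.0-fold and 65.3-fold for Slc12a2.

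The fit compared ISC with each other type on UMI sums, with the library as a block and trimmed mean of M values (TMM) scaling. A gene was called at a Benjamini-Hochberg adjusted p under 0.05 in edgeR's quasi-likelihood test with at least a 2-fold change. Against progenitors, 7 of the 8 genes were called higher in ISC, where 1.28% of all tested genes were. Axin2 was the gene not called, with a log2 difference of 0.82 (SE 0.21, adjusted p = 0.0183 by edgeR), which is under 2-fold. Against secretory progenitors 6 were called, beside 1.94% of all genes, with Axin2 at 0.93 and Slc12a2 at 0.78 on the log2 scale under the fold limit. Against goblet cells all 8 were called, beside 9.72% of all genes, against EEC all 8, beside 5.43%, and against enterocytes all 8, beside 16%. Against tuft cells 7 were called, beside 3.83%, with Ascl2 the exception. Against Paneth cells Olfm4 alone was called, beside 5.38%, at a log2 difference of 1.06 (SE 0.30, adjusted p = 0.0114 by edgeR). In library 1 alone that difference was 0.69 and in library 2 alone 1.16, and DESeq2 called 0 of the 8 genes against Paneth cells. None of the 8 was called lower in ISC in the 7 contrasts, where the shares of all genes called lower were 2.77% against progenitors, 6.12% against secretory progenitors, 13.6% against goblet, 9.26% against Paneth, 9.75% against EEC, 6.67% against tuft and 17.7% against enterocytes. The types were named on these same cells, so nothing beyond the size of the differences is read from these counts.

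The sizes differed by type. The median log2 difference of the 8 genes was 1.42 against progenitors, where the median of all genes was -0.10. It was 2.05 against secretory progenitors, 4.29 against goblet cells and 6.27 against enterocytes, where all genes had medians of -0.05, -0.02 and -0.04. Against enterocytes the largest were Olfm4 at 8.81 (SE 0.48) and Lgr5 at 7.72 (SE 0.40), and the smallest were Axin2 at 2.85 (SE 0.24) and Rgmb at 2.98 (SE 0.24). The size of the Olfm4 difference from enterocytes depended on the library, at 4.35 in library 1 alone and 10.64 in library 2 alone. The enterocyte sums of Olfm4 hold 5 and 2 UMIs. Against progenitors the order was Gkn3 at 2.78, Lgr5 at 2.56, Olfm4 at 2.31, Rgmb at 1.56, Slc12a2 at 1.28, Ascl2 at 1.20, Smoc2 at 1.12 and Axin2 at 0.82. Within single libraries the ISC minus progenitor difference of Ascl2 was 0.82 in library 1 and 1.52 in library 2, and that of Smoc2 was 0.86 and 1.34. Without the library as a block, 2 of the 8 genes were called against progenitors. With DESeq2 the Olfm4 difference from progenitors was 2.40 and lost its call (adjusted p = 0.276 by DESeq2).

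**Figure D2:**
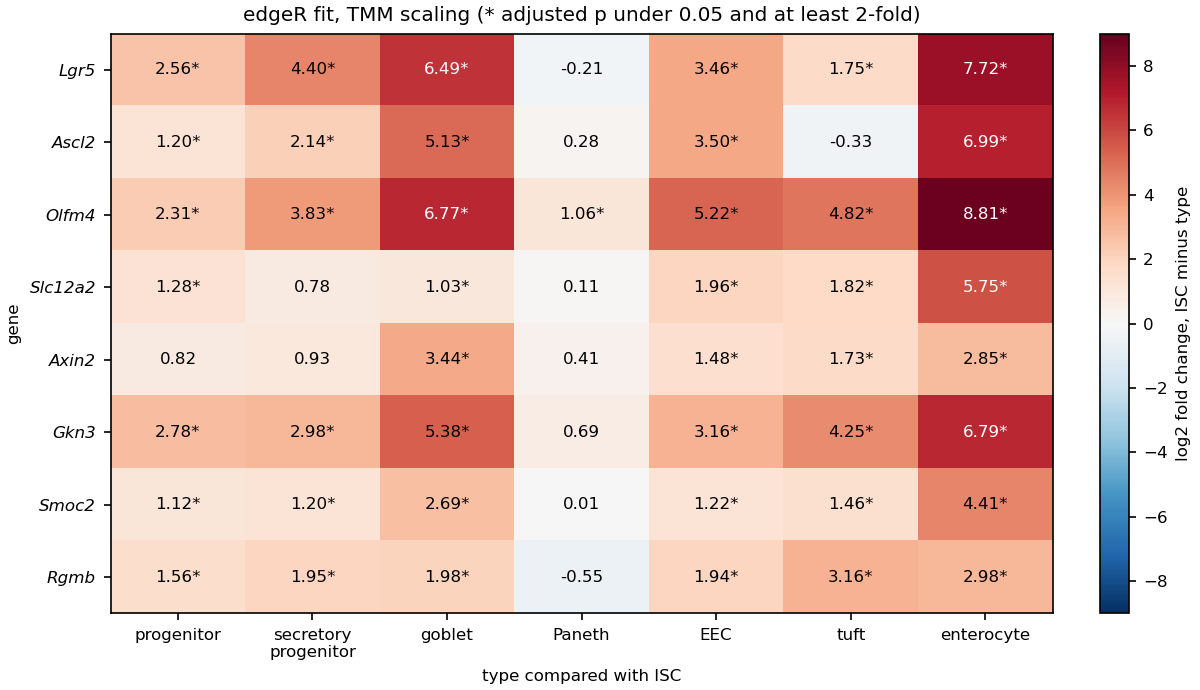
Log2 fold change of ISC minus each other type (columns) for the 8 genes (rows) from the edgeR fit with TMM scaling; colour gives the sign and size, and an asterisk marks a call. The Paneth column is near 0 with 1 call, Olfm4 at 1.06, while the enterocyte column runs from 2.85 to 8.81; values against types with few or 0 UMIs depend on the fit's prior count.

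Paneth cells, the neighbours of stem cells at the crypt base, were the type for which the answer turned on the scale. A median of 50.7% and 45.2% of a Paneth cell's UMIs came from the 8 measured Paneth markers, such as the lysozyme Lyz1 and defensins. These cells also held more UMIs, so a gene's CPM in them is divided by a large total. TMM gave them factors of 0.170 and 0.408, against 1.12 and 1.25 for ISC. On CPM, Lgr5 was 5.38-fold and 2.76-fold higher in ISC than in Paneth cells. Per cell, ISC had 0.526 and 1.16 Lgr5 UMIs and Paneth 0.440 and 1.39. The fit with TMM gave a log2 difference of -0.21 (SE 0.24, adjusted p = 0.579 by edgeR).

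With scaling by library size alone, an alternative added after the data were seen, all 8 genes were called higher in ISC than in Paneth cells. Under that scaling 76.5% of all tested genes were called higher, and the median of all genes moved from 0.02 to 2.10 on the log2 scale. The Lgr5 difference became 1.84 and that of Rgmb went from -0.55 to 1.61. Relative to the median of all genes, the 8 genes had a median of 2.25 against 2.10 with library-size scaling, and of 0.20 against 0.02 with TMM. The UMIs per cell of Rgmb were 0.731 and 0.775 in ISC cells and 0.893 and 1.00 in Paneth cells. Olfm4 kept its direction on every scale, with 0.308 and 5.24 UMIs per ISC cell and 0.131 and 2.51 per Paneth cell. By UMIs per cell, ISC ranked first among the types in 7 of the 16 gene and library pairs and Paneth in 4.

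**Figure D3:**
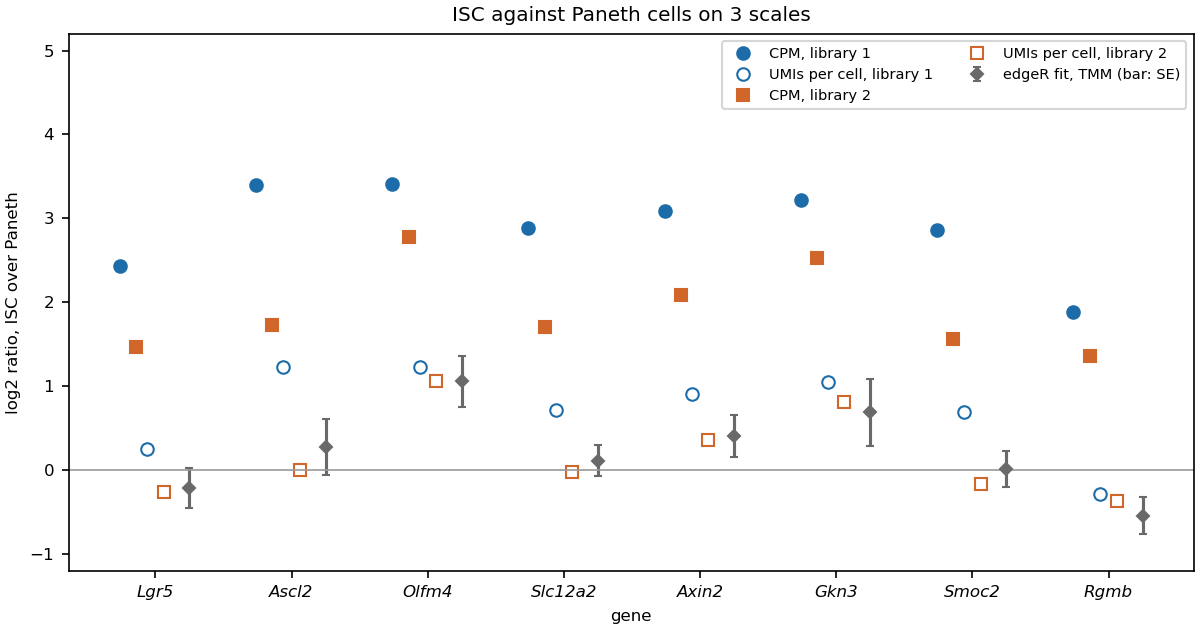
Log2 ratio of ISC over Paneth cells (y axis) for each gene (x axis) on 3 scales: CPM per library (filled), UMIs per cell per library (open) and the edgeR fit with TMM (diamonds, bars are SE). Ratios of CPM lie above 0 for all 8 genes in both libraries, whereas ratios per cell and fitted values lie on both sides of 0, with Lgr5 at -0.21 and Olfm4 at 1.06 in the fit.

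The Paneth level also differed between libraries. From library 1 to library 2, Lgr5 in Paneth cells went from 6.31 to 23.2 CPM, Ascl2 from 2.90 to 10.6, Slc12a2 from 32.6 to 150 and Axin2 from 7.34 to 19.8. The same change touched the whole profile, since 54.7% of 8016 genes in Paneth cells were at least 2-fold higher in library 2 on log2(CPM + 1), with a median difference of 1.06. Gkn3 stayed at 4.27 and 4.29 CPM.

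In ISC cells the libraries were closer. Of 7885 genes, 7.25% were at least 2-fold higher in library 2 and 3.31% at least 2-fold lower, each library being a single sample. Olfm4 rose by 3.79 on the log2(CPM + 1) scale, and 0 of the 7885 genes rose more. Slc12a2 was 1.02 higher and 542 genes rose more. Lgr5 was 0.90 higher, Axin2 0.43, Ascl2 0.19 and Smoc2 0.14. Gkn3 differed by -0.66 and Rgmb by -0.14. The genes thus did not move as a block between libraries, and Olfm4 stood apart from the other 7. With 1 library on each side, animal, preparation and sequencing cannot be told apart.

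A cell shows a gene only if a molecule was caught, so shares of cells depend on depth. To compare types, each cell was thinned to 5000 UMIs, and shallower cells were left out: 0 ISC cells in library 1 and 5 in library 2. Thinned, Lgr5 was detected in 14.3% and 20.9% of ISC cells, 7.25% and 5.88% of tuft cells, 3.24% and 10.2% of Paneth cells, 3.40% and 3.29% of progenitors and 0.0736% and 0.117% of enterocytes. Before thinning the order was different: 28.6% (24 of 84) and 40.5% (30 of 74) of Paneth cells had an Lgr5 UMI, above the 25.6% (20 of 78) and 32.5% (26 of 80) of ISC cells. The 95% binomial intervals of ISC were 16.4% to 36.8% and 22.5% to 43.9% and overlapped those of Paneth. The background share in enterocytes before thinning was 0.246% and 0.615%, at median depths of 15164 and 24698 UMIs.

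The other genes were detected in more ISC cells than cells of any other type after thinning, again except Ascl2. Slc12a2 was seen in 61.2% and 76.6% of thinned ISC cells and Smoc2 in 41.5% and 44.5%. Axin2 followed at 25.2% and 34.5%, Rgmb at 21.3% and 19.2%, Gkn3 at 15.9% and 11.3% and Ascl2 at 14.2% and 16.2%. Olfm4 was seen in 8.44% and 55.7%, so its gap between libraries was in the share of cells as well as in the summed level. Thinned Ascl2 detection in tuft cells was 26.8% and 30.0%. In enterocytes the thinned shares of the 8 genes ran from 0.0341% for Gkn3 to 5.03% for Axin2, both in library 2.

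Lgr5 alone did not delimit the ISC type. A total of 75 and 101 annotated cells held an Lgr5 UMI. Of these, 26.7% and 25.7% were ISC, 29.3% and 27.7% progenitor and 32% and 29.7% Paneth, although ISC made up 6.82% and 5.44% of all annotated cells. Of the 20 and 26 ISC cells with Lgr5, 6 and 10 held a single UMI of it.

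Most ISC cells carried several of the genes at once. The mean number with a UMI was 3.62 and 4.26 of 8 in ISC cells, against 2.18 and 2.61 in progenitors, 2.77 and 3.55 in Paneth cells and 0.300 and 0.666 in enterocytes. At least 5 of the 8 were seen in 25 of 78 (32.1%) and 36 of 80 (45%) ISC cells, and in 37 of 330 (11.2%) and 60 of 364 (16.5%) progenitors. In enterocytes 0 of 406 and 0 of 488 reached 5. All 8 were seen in 2 and 5 ISC cells. Thinned to 5000 UMIs, the mean was 2.02 and 2.79 in ISC cells, 1.03 and 1.07 in progenitors, 0.409 and 1.04 in Paneth cells and 0.0963 and 0.134 in enterocytes. Paneth cells were above progenitors before thinning and below them after it, narrowly so in library 2.

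**Figure D4:**
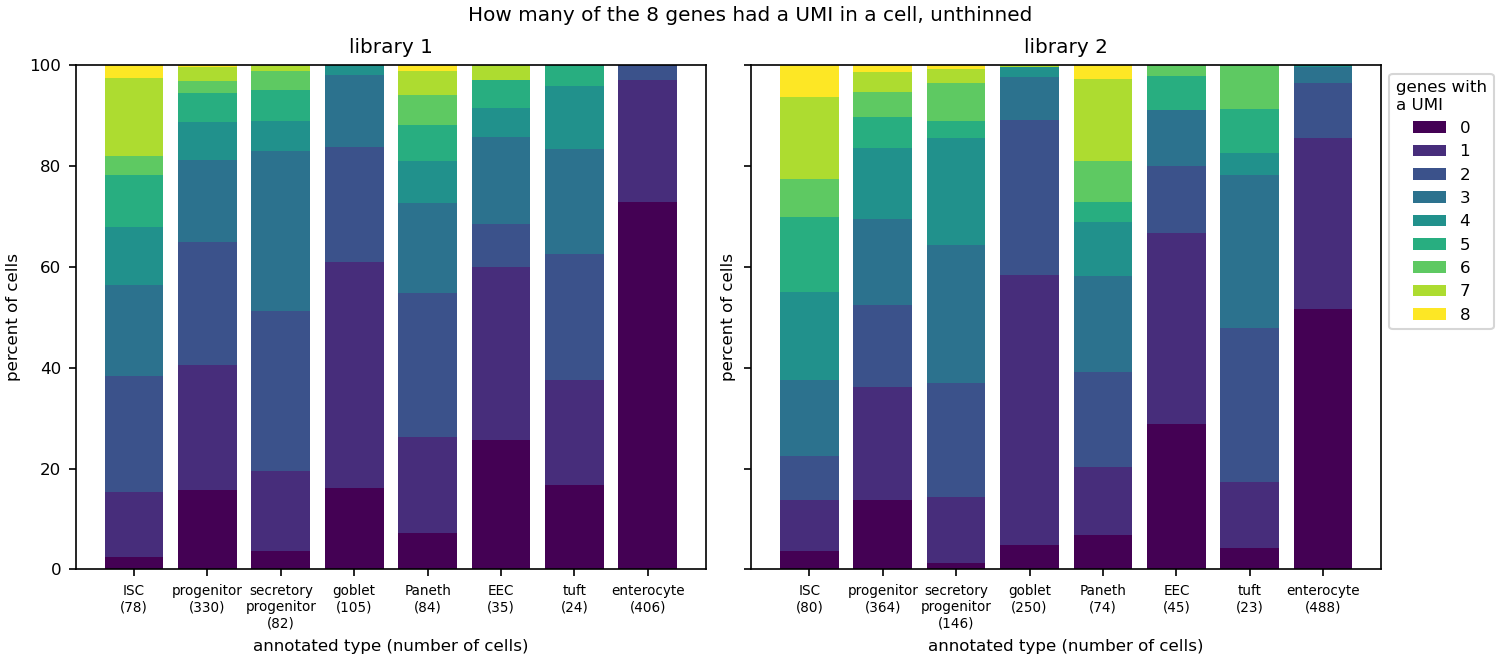
Percent of cells (y axis) by how many of the 8 genes had a UMI (colour, 0 to 8), for each annotated type (x axis, number of cells in brackets), unthinned, 1 panel per library. ISC bars reach 5 or more genes in 32.1% and 45% of cells, while 72.9% and 51.6% of enterocytes had none.

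Within the ISC type, cells with an Lgr5 UMI were richer in the other 7 genes. They held a mean of 5.25 and 5.58 of the other 7, against 2.71 and 3.15 in ISC cells without Lgr5. Their median depth was not greater, at 13791 and 14288 UMIs against 15232 and 17957. Ascl2 was present in 12 of 20 (60%) and 18 of 26 (69.2%) ISC cells with Lgr5, and in 13 of 58 (22.4%) and 10 of 54 (18.5%) without. Rgmb was present in 80% and 76.9% with Lgr5, against 25.9% and 22.2% without. Gkn3 was present in 70% and 38.5%, against 22.4% and 7.41%. Olfm4 reached 35% and 100% with Lgr5 and 15.5% and 57.4% without. Slc12a2 was in all ISC cells with Lgr5, 20 of 20 and 26 of 26, and in 79.3% and 88.9% of the others, a share near its ceiling. Its level was 410 and 876 CPM in ISC cells with Lgr5 and 186 and 290 CPM in those without.

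Co-detection was then set against the number expected if the 2 genes fell independently among cells thinned to 5000 UMIs. In ISC cells the ratio of observed to expected was 2.52 and 1.99 for Ascl2, 2.17 and 2.13 for Gkn3, 2.05 and 2.15 for Rgmb, 1.85 and 1.51 for Axin2, 1.71 and 1.66 for Olfm4, 1.43 and 1.53 for Smoc2 and 1.42 and 1.27 for Slc12a2. A ratio above 1 means that the genes met in the same cells more often than the product of their shares. All 7 ratios were above 1 in both libraries. Cells are not replicates, so no p is given. A common gene such as Slc12a2 has little room above 1.

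In progenitors the ratios were also above 1 for each of the 7 genes in both libraries. Their ceiling is set by the share of the gene in the type, which is lower in progenitors, so ratios are not compared between types. Thinned, Ascl2 was in 38.6% and 29.2% of progenitors with Lgr5 and in 35.7% and 32.3% of ISC cells with Lgr5. Gkn3 had ratios of 9.24 and 9.18, Ascl2 5.39 and 5.44, Olfm4 5.66 and 5.29, and Axin2 3.35 and 2.17. Of 22 and 28 progenitors with Lgr5, 15 and 20 held Ascl2, whereas 35 of 308 and 37 of 336 progenitors without Lgr5 did. Progenitors with Lgr5 held a mean of 5 and 5.43 of the other 7 genes, unthinned, and those without held 1.9 and 2.29. The progenitors with Lgr5 were deeper than ISC cells with Lgr5, at medians of 17909 and 30293 UMIs against 13791 and 14288, so these numbers per cell are not compared between the types. In library 2 the progenitors with Lgr5 had 111 CPM of Lgr5, 16.2 of Gkn3 and 65.7 of Rgmb. ISC cells with Lgr5 had 188, 54.5 and 96.9 CPM there. Library 1 gave 120, 64.0 and 77.3 CPM in these progenitors and 138, 101 and 114 CPM in these ISC cells. In library 1 the progenitors were higher for Ascl2 (109 against 73.9 CPM), Axin2 (149 against 104) and Smoc2 (200 against 181). For the other genes they were lower. In library 2 they were lower for all 8, with Ascl2 at 76.2 against 78.7 CPM. Cells were picked here by an Lgr5 UMI, so their Lgr5 CPM depends on depth. In Paneth cells the ratios ran from 0.646 for Gkn3 in library 2 to 3.11 for Olfm4 in library 1, on thinned expectations of 2.76 cells or fewer. Paneth cells with Lgr5 held 3.25 and 4.33 of the other 7 genes, against 2.18 and 2.34 without.

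**Figure D5:**
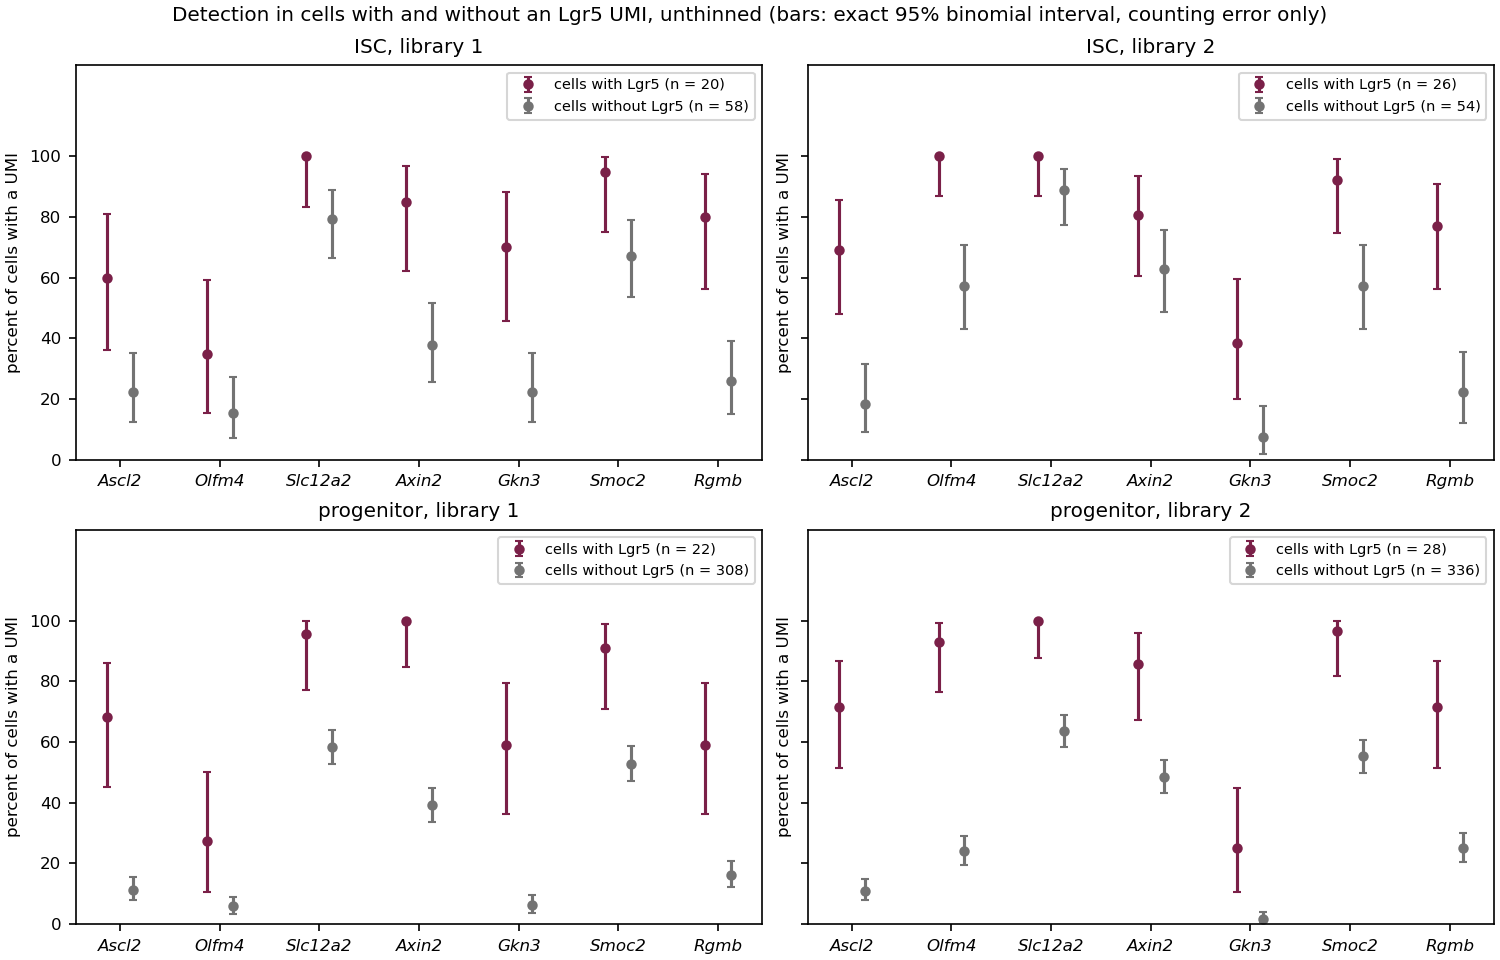
Percent of cells with a UMI of each gene (y axis) among cells with an Lgr5 UMI (dark) and without (grey), unthinned, for ISC (top) and progenitor (bottom) in library 1 (left) and library 2 (right); bars are exact 95% binomial intervals that cover counting error only. For every gene the share is higher in cells with Lgr5, as for Ascl2 in ISC cells at 60% and 69.2% against 22.4% and 18.5%.

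Other measures moved with the Lgr5 split. The 20 genes of the cell cycle list summed to 1390 and 1485 CPM in ISC cells with Lgr5 and to 1868 and 2239 CPM in those without. In progenitors the direction was opposite, at 4430 and 5590 CPM with Lgr5 and 3637 and 4447 without. In Paneth cells the list stood at 248 and 1082 CPM with Lgr5 and at 98.4 and 175 without, while a median of 47.7% and 36.1% of UMIs came from Paneth markers with Lgr5 and 51.7% and 48.3% without. Markers of other types moved with the split as well, some up and some down. The 8 measured Paneth markers summed to 16060 and 1084 CPM in ISC cells with Lgr5 and to 3060 and 750 CPM without. Their median share of a cell's UMIs was closer, at 0.343% and 0.0955% with Lgr5 and 0.261% and 0.0668% without. In progenitors they summed to 6519 and 3252 CPM with Lgr5 and to 3042 and 1001 CPM without. The median shares there were 0.355% and 0.0642% with Lgr5 and 0.283% and 0.0461% without. Goblet markers in progenitors were at 786 and 3686 CPM with Lgr5 and at 916 and 1891 CPM without. In ISC cells they were at 1249 and 1197 CPM with Lgr5 and at 658 and 855 CPM without. Enterocyte markers were lower with Lgr5 in ISC cells, at 1179 and 801 CPM against 1899 and 1236 CPM. They were also lower in progenitors, at 1186 and 808 CPM against 3060 and 1806 CPM. In Paneth cells they were higher with Lgr5, at 565 and 371 CPM against 506 and 259 CPM. Barcodes that hold more than 1 cell were not called, and their part in these values was not tested. In ISC cells 3 of 78 and 1 of 80 took over 1% of their UMIs from Paneth markers, with a highest value of 11.9%. Of the 3 in library 1, 2 had an Lgr5 UMI, among them the cell at 11.9%. The 1 in library 2 had no Lgr5 UMI. Without all the ISC cells over 1%, Lgr5 in ISC stood at 31.3 and 64.2 CPM. Ascl2 was then in 55.6% and 69.2% of ISC cells with Lgr5, against 22.8% and 18.9% without Lgr5.

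Other genes of the crypt base went the same way in part. Of 14 tested genes on a list of other stem cell genes, 7 were called higher in ISC than in progenitors and 0 lower, with a median log2 difference of 1.00. Against Paneth cells 1 was called higher and 1 lower, beside 5.38% and 9.26% of all genes. Against tuft cells 7 were called higher and 2 lower, Sox9 among the 2, beside 3.83% and 6.67%. In the contrast with progenitors, 1.28% of all tested genes were called higher and 2.77% lower, which stands beside every list count below. Calls over all genes in that contrast went from 471 to 100 without the library block. Tnfrsf19, a receptor of the TNF family, differed by 2.72 (SE 0.55), Msi1, an RNA-binding protein, by 2.15 (SE 0.39), and Soat1, which esterifies cholesterol, by 2.04 (SE 0.20). Of 3 tested genes linked to reserve stem cells, 0 were called in either direction by edgeR. Hopx, a homeodomain protein, had a log2 difference of 0.89 (SE 0.16), under the fold limit. It stood at 29.8 and 185 CPM in ISC cells and higher in tuft cells, at 51.7 and 296 CPM.

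Wnt target genes, 12 tested, included 5 called higher and 0 lower in ISC than in progenitors, with a median log2 difference of 1.00. They were Sp5 at 1.52 (SE 0.36), Cdca7 at 1.37 (SE 0.21), Myc at 1.29 (SE 0.20), Sox9 at 1.22 (SE 0.23) and Rnf43 at 1.13 (SE 0.21). Rnf43 encodes a ligase that removes Wnt receptors from the surface and was the gene called among 14 receptors and regulators of R-spondin and Wnt reception. Of 14 transducers of the pathway 0 were called, with a median of -0.13 beside -0.10 for all genes. Cdca7 and Sox9 stand on 2 of these lists. Sox9 stood at 76.2 and 106 CPM in ISC cells and higher in tuft cells, at 289 and 232 CPM.

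Calls were few among BMP and Notch genes. Of 14 BMP genes 0 were called higher and 1 lower, the inhibitory Smad6 at -2.15 (SE 0.52), which stood at 1.66 and 2.76 CPM in ISC cells and at 13.1 and 8.41 CPM in progenitors. Of 11 Notch genes 0 were called in either direction by edgeR. The cell cycle list had 12 of 20 genes called lower in ISC than in progenitors and 0 higher, with a median of -1.97. The mitotic kinases Aurkb and Aurka differed by -4.67 (SE 0.44) and -4.53 (SE 0.42). Top2a, the topoisomerase that untangles replicated chromosomes, stood at 21.5 and 33.8 CPM in ISC cells and at 261 and 379 CPM in progenitors.

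The genes whose levels were most like those of Lgr5 were ranked by Pearson's r of log2(CPM + 1) over the 16 type and library sums, among 5054 genes. The top 5 were Msi1 at 0.86, Ascl2 at 0.80, Mecom at 0.77, Olfm4 at 0.76 and Pla2g12a at 0.76, of which Ascl2 and Olfm4 belong to the 8 genes. Of the others in the set, Smoc2 ranked 7, Axin2 20, Rgmb 29, Gkn3 49 and Slc12a2 59. The 16 points share 2 libraries and differ in depth and cell number, so the values of r are a description. Mecom, a transcription factor, stood at 19.1 and 33.1 CPM in ISC cells and at 0.157 and 2.02 CPM in enterocytes.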

How the data were processed

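Single-cell RNA was measured in 2 libraries of wild-type small intestine. The deposited matrices hold raw UMI counts per gene and barcode, made with 10X Genomics Chromium per the labels' protocols. The labels name genome build mm9 without a role. The authors also deposited the named type of each cell. How reads were aligned and counted, and how cells were filtered and clustered, is not given in the sources used here. Members and lists were chosen with earlier results of these data known.

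Here, UMI counts were summed per library and type (16 sums). Genes were filtered with filterByExpr and fitted with edgeR 4.0.16 (quasi-likelihood, TMM) in R 4.3.3. The library was a block, since every type comes from the same 2 libraries, which is where the pairing comes from. Calls needed a Benjamini-Hochberg adjusted p under 0.05 and 2-fold change. The SE was derived from the test, as the absolute log2 difference divided by the square root of its F statistic. The code was tested on simulated data.

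Intervals (95%, exact Poisson or binomial) cover counting error only. Thinning gave the expected share of cells with a UMI at 5000 UMIs, the highest of 500, 1000, 2000, 3000 and 5000 that at least 80% of ISC cells reach in each library. No doublet caller was run. Co-detection is given for types with at least 20 cells with Lgr5 in both libraries. Named genes are the 8, up to 5 per list by size of the ISC minus progenitor difference, and the 5 genes most correlated with Lgr5 among those with at least 20 UMIs in ISC cells of each library. Alternatives were DESeq2 1.42.0, other size factors, no filter, no block, other thinning, deep cells left out, and, added after the data were seen, scaling by library size, a matched UMI floor and ISC cells rich in Paneth markers left out.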

Additional observations from a re-analysis of the deposited data

How the results depend on the processing

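All 8 genes were called against enterocytes in each alternative fit. Against goblet cells 7 or 8 were: Slc12a2, at 1.03, lost its call without the block (1.04) and without the deepest cells of each type (0.84). Against EEC, Smoc2 lost its call under library-size scaling (0.85). Without the library as a replicate block, the genes called numbered 100 against progenitors (2 of the 8 stem cell genes, 471 and 7 with the block), 377 against secretory progenitors (3, from 935 and 6), 1115 against Paneth cells (0, from 1700 and 1), 1059 against EEC (5, from 1762 and 8) and 640 against tuft cells (3, from 1219 and 7). Of 56 differences of the 8 genes, 17 lost their call without the block and 0 changed direction. Scaling by library size called 9124 genes and 8 of the 8 against Paneth cells, and reversed Lgr5 (1.84) and Rgmb (1.61). DESeq2 called 0 of the 8 against Paneth cells. The Smoc2 difference against Paneth cells, 0.01 in the fit, was -0.045 with RLE size factors, -0.035 with DESeq2 and -0.018 with a matched UMI floor; no call was at stake. No filter on low counts changed no call of the 8 genes.

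Shares of cells moved with depth. As means of the libraries, thinning to 3000 UMIs gave 12.5% for Lgr5, 9.71% for Ascl2, 55.9% for Slc12a2, 19.6% for Axin2, 9.19% for Gkn3, 30.2% for Smoc2 and 13.3% for Rgmb in ISC cells. Unthinned shares were 29.1%, 33.5%, 88.6%, 59.4%, 26.1%, 71.6% and 39.9% in that order. The mean over cells of their CPM was 142 for Smoc2 and 51.0 for Rgmb, against 118 and 45.0 from sums.

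Co-detection ratios in ISC cells, pooled over the libraries, were above 1 but lower than with thinning when unthinned cells were compared within 5 bins of UMI total (Olfm4 in library 1 alone rose from 1.71 to 1.84): 1.59 for Ascl2, 1.32 for Olfm4, 1.10 for Slc12a2, 1.32 for Axin2, 1.67 for Gkn3, 1.24 for Smoc2 and 1.66 for Rgmb. At 3000 UMIs they were 1.81 for Olfm4, 1.43 for Slc12a2, 2.25 for Gkn3 and 2.18 for Rgmb. Gkn3 was 2.11 without the deepest cells of each type and 2.18 without ISC cells rich in Paneth markers. With 1 library left out, Olfm4 ran from 1.66 to 1.71. The cause of these shifts was not tested.

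With 1 library left out no test remains, so only fold changes were taken. CPM over each library's own annotation was not run, because both libraries list the same 27998 genes. Tuft and EEC sums rest on few cells: the 0 Gkn3 UMIs in library 2 allow up to 5.16 CPM in tuft and 3.70 CPM in EEC cells (3 UMIs of the total).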

Other observations

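Barcodes without a type name also held these genes. In library 2, 1899 unnamed barcodes of 500 to 1000 UMIs gave 2.19 CPM for Lgr5 (3 UMIs), 11.7 for Olfm4, 30.6 for Slc12a2, 10.2 for Smoc2, 6.56 for Axin2 and 0 for Gkn3. The enterocyte type of that library was at 0.196 CPM for Lgr5 and 0.130 for Olfm4, both below those 1899 barcodes. For Lgr5 this did not hold in the 1515 unnamed barcodes of 1000 to 2000 UMIs, with 0 Lgr5 UMIs and 5.08 CPM of Olfm4. The 2086 unnamed barcodes of 2000 to 5000 UMIs gave 2.17 CPM for Lgr5 (14 UMIs) and 6.04 for Olfm4. A further 428 unnamed barcodes of library 2 held at least 8339 UMIs, the depth of the shallowest named cell of library 1. They carried 92 Lgr5 UMIs (8.79 CPM), 350 Olfm4 UMIs (33.4 CPM) and 59 Ascl2 UMIs (5.64 CPM). In library 1, 65 unnamed barcodes held 4 Lgr5 UMIs and 2 Olfm4 UMIs. The single ISC cell richest in Lgr5 held 5 UMIs of it in library 1 and 13 in library 2, while the progenitor richest in it held 5 and 18 and the Paneth cell 4 and 16.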
